A study of Mus musculus with 2 samples.

Results

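Receptors that bind antibodies, sialic acids or other ligands at the surface of white blood cells were followed in granulocytes and monocytes sorted from mouse bone marrow. The set comprised every gene probe of the arrays whose name in the files begins with Fcgr, Fcer, Fcrl, Cd300, Trem, Siglec, Pilr, Pira, Pirb, Lilr, Lair or Sirp, together with Cd33. These were 64 probes for 41 genes, out of 19730 named genes on the array. Signal was well above background on at least 1 array for 40 of the 41 genes and for 15604 of all named genes, and Fcrl6 was the gene left without signal on either array. Of the 40, 37 were above background on both arrays, while Fcer2a, Fcrl5 and Siglech were above it on 1 array.

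The cells came from wild type male C57BL/6 mice, and each cell type was hybridised to 1 one-colour Agilent array. For the age and number of the mice and the surface markers of the sort, nothing is stated in the sources used here. With 1 array per cell type there was no replicate, so no test was made, no p-value is given, and every difference is between 2 arrays. A level is the log2 processed signal relative to the 75th percentile of its array, and a difference is the granulocyte level minus the monocyte level. A gene was counted as different at 4-fold, which is 2.0 on this scale.

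The 2 cell types could be told apart by their markers. All 10 granulocyte markers measured were higher in granulocytes, with a median difference of 2.76 and the gelatinase gene Mmp9 at 9.65. All 8 monocyte markers were lower there, with a median of -7.05 and the fibronectin gene Fn1 at -8.51. Granule genes such as Ltf (7.33) and Camp (7.04) were nevertheless bright on the monocyte array. Between 63.9% and 68.2% of the probes were well above background on each array, 0 spots were saturated, and repeated spots of a probe had a median SD of 0.07 on either array. In such bulk samples, fewer cells of a type and less RNA per cell cannot be told apart.

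Most of these receptors come in families of close relatives in which some members activate the cell and others restrain it. Activating receptors usually have a short tail and borrow a signalling adaptor, such as the Fc receptor gamma chain or Tyrobp, whose tyrosine motif recruits the kinase Syk. Inhibitory receptors carry tyrosine motifs of their own that recruit the phosphatases Ptpn6, Ptpn11 or Inpp5d. In myeloid cells the balance between both kinds sets how readily antibody-coated particles, sialic acid bearing surfaces and damaged cells provoke uptake, degranulation or cytokine release.

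Of the 40 receptor genes above background, 12 (30%) had a granulocyte level 4 or more times that of monocytes, against 8.54% of all genes above background. Another 5 (12.5%) passed 4-fold on the monocyte side, a share near the 10.4% of all genes. Without scaling between the arrays the counts were 9 and 7, and the shares of all genes were 3.72% and 19.3%. The median difference of the receptor genes was 1.40 and that of all genes 0.45. Of the 40, 26 passed 2-fold on the granulocyte side, 7 on the monocyte side and 7 on neither, where the shares of all genes were 29.1% and 20.9%. Without scaling 13 and 8 of the 40 passed 2-fold, against 9.9% and 35.3% of all genes. At the upper end stood Cd33, Fcgr4, Pilra, Cd300lf and Trem1, and at the lower end Trem2, Fcgr1, Fcgrt, Siglech and Cd300lg.

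**Figure D1:**
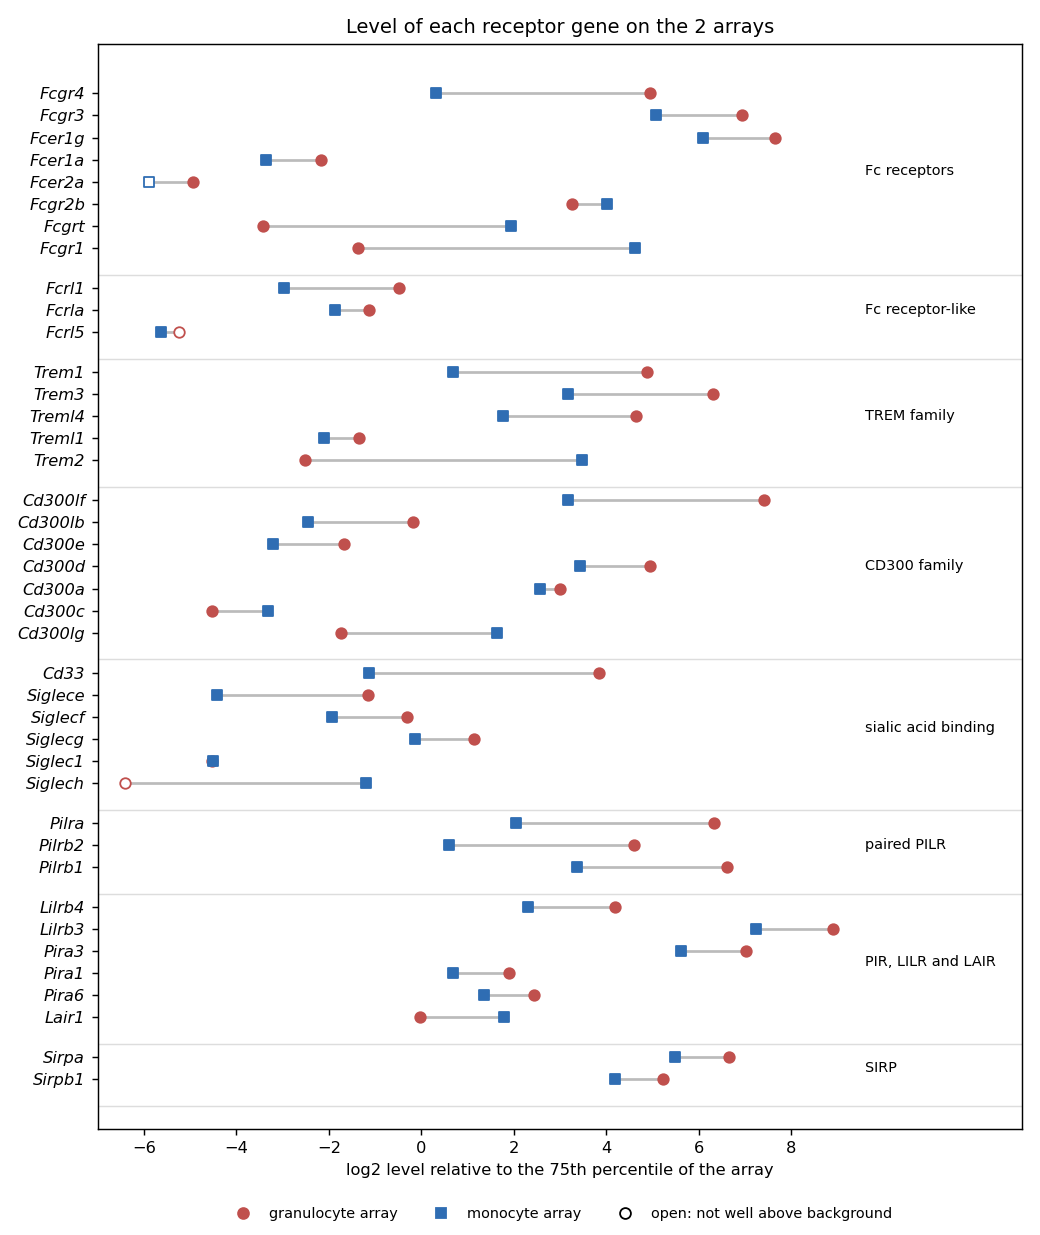
Level of the 40 receptor genes above background, as log2 of the signal relative to the 75th percentile of each array, with granulocytes as circles and monocytes as squares (1 array each) and genes grouped by family. Open symbols were not well above background; Trem2, Fcgr1 and Fcgrt show the widest gaps on the monocyte side, and Cd33, Fcgr4 and Pilra on the granulocyte side.

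**Figure D2:**
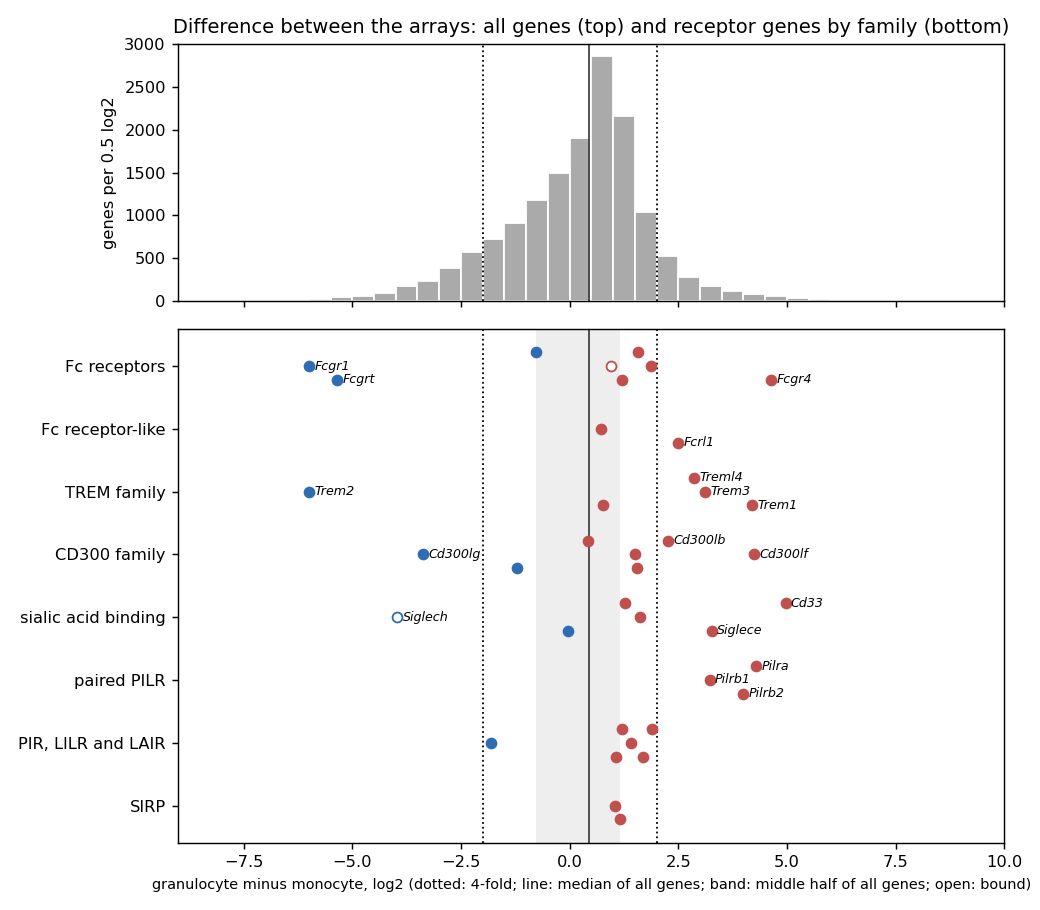
Granulocyte minus monocyte difference on the log2 scale for all genes as a histogram (top) and for each receptor gene by family (bottom). The line is the median of all genes (0.45), the band runs from their 25th to their 75th percentile (-0.75 to 1.13), the dotted lines 4-fold and open circles lower bounds; the 3 PILR genes all lie beyond 4-fold, and the Fc receptors and TREM genes have members beyond it on both sides.

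Among the receptors for IgG, the high-affinity receptor gene Fcgr1 and the low-affinity receptor gene Fcgr4 lay at opposite ends. Fcgr1 had a level of -1.37 in granulocytes and 4.62 in monocytes, a difference of -5.99, or 63.4-fold. Its other probe gave -5.71. Fcgr4, whose product binds IgG of the classes most active in mouse effector responses, had a level of 4.95 in granulocytes and 0.31 in monocytes, a difference of 4.64 (24.99-fold). The low-affinity activating receptor gene Fcgr3 was bright on both arrays, at 6.93 in granulocytes and 5.07 in monocytes. It differed by 1.86 (3.64-fold), and by 1.27 with its other probe. Fcgr2b, the inhibitory receptor for IgG, was the Fc gamma receptor with the smallest difference: 3.25 in granulocytes and 4.02 in monocytes, or -0.77. Its main probe was spotted 10 times on each array with an SD of 0.08 between spots on either array, and its other probes gave -0.80 and -1.12. All 3 probes lay on the monocyte side, while the SD between spots covers the array only and not variation between samples.

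Just upstream of their start sites, Fcgr1 and Fcgr4 share a match to the purine-rich core bound by ETS factors such as PU.1, a regulator of the myeloid lineage. The stretches are shown because these receptor genes differed in opposite directions. They hold the 120 bases before the start in RefSeq's assembly GRCm38.p6, 5′ to 3′ on the gene's strand. Capitals mark matches, on either strand, to GAGGAA (PU.1-type ETS), TTGCNNAA (C/EBP), GGAANNGAA (ETS-IRF composite), GAAANNGAA (interferon-response element) or TGANTCA (AP-1), and matches of different motifs may overlap. The Fcgr1 stretch is chr3:96293970-96294089 on the minus strand and the Fcgr4 stretch chr1:171018806-171018925 on the plus strand.
Fcgr1: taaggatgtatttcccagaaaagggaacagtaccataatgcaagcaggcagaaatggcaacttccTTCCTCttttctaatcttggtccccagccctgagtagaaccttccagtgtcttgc
Fcgr4: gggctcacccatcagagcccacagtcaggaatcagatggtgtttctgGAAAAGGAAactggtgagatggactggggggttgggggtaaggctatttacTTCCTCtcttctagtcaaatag
In both, the ETS match lies on the opposite strand, at -55 to -50 in Fcgr1 and -22 to -17 in Fcgr4 counted from the start site. Fcgr4 has in addition a match to the interferon-response letters at -73 to -65. A match is a description of the letters and not evidence of binding.

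Fcer1g encodes the gamma chain through which the activating Fc receptors, the PIR-A receptors and several others signal. It was among the brightest of the set on both arrays, at 7.65 in granulocytes and 6.08 in monocytes, and differed by 1.57 (2.97-fold), with 1.43 by its other probe. Fcgrt, the neonatal Fc receptor that protects IgG from breakdown inside cells, had a level of -3.42 in granulocytes and 1.93 in monocytes, a difference of -5.35 (40.8-fold) that came to -3.85 after normexp correction of the background. The IgE receptor genes were dim. Fcer1a, the ligand-binding chain of the high-affinity receptor of basophils and mast cells, stood at -2.18 and -3.37, a difference of 1.19. The low-affinity receptor gene Fcer2a was close to background in granulocytes, at -4.94. With the scaling it was at least 1.93-fold higher there, a bound of 0.95 that came to 0.08 without scaling. Of the 9 basophil and mast cell markers, 8 were also above 0, with a median of 1.35. Their summed signal, in units of the 75th percentile, was 333 in granulocytes and 11.7 in monocytes, carried mainly by the histidine decarboxylase gene Hdc (5.03). The part of such cells in the Fcer1a value was not tested.

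The Fc receptor-like genes, best known from B cells, were few and dim. Fcrl1 had a level of -0.48 in granulocytes and -2.98 in monocytes, a difference of 2.49 (5.63-fold), with 2.14 by its other probe. It passed 4-fold neither without scaling (1.62) nor after normexp correction (1.88). Fcrla, which stays inside B cells, differed by 0.73, and by -0.14 without scaling. Fcrl5 was above background in monocytes, but its signal there was too close to background for a bound on the difference. Of 9 B-lineage markers, 8 were above 0, with a median difference of 1.15, 0 beyond 4-fold, and a summed signal of 6.69 in granulocytes and 5.57 in monocytes. The part of B cells in the Fcrl1, Fcrla, Fcer2a and Siglecg values was not tested.

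The TREM genes were split between the cell types. Trem1, which amplifies inflammatory responses of neutrophils and monocytes, had a level of 4.89 in granulocytes and 0.69 in monocytes, a difference of 4.20 (18.4-fold), and 3.90 by its other probe. Trem3, an activating relative, stood at 6.30 and 3.17, a difference of 3.13 (8.73-fold). Treml4 stood at 4.64 and 1.77, a difference of 2.87 (7.29-fold). These 3 neighbouring genes were all beyond 4-fold on the granulocyte side, although Treml4 came to 1.99 without scaling. Trem2, a lipid-sensing receptor of macrophages and microglia, went the other way, with a level of -2.52 in granulocytes and 3.47 in monocytes. Its difference of -5.997 (63.9-fold) was, with that of Fcgr1, the lowest of the whole set, and its other probe gave -5.45. Treml1, a receptor of platelet granules, was dim, at -1.34 and -2.11, and its difference of 0.77 turned to -0.10 without scaling. All 8 platelet markers were above 0, with a median of 1.67. Their summed signal was 34.4 in granulocytes and 7.29 in monocytes, carried mainly by Itgb3 (4.72 in granulocytes and 2.52 in monocytes). The 2 probes of Itgb3 gave 2.19 and 0.47. The part of platelets in the Treml1 value was not tested.

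The bases upstream of Trem1 and Trem2 are shown because these neighbours, of similar structure and with the same adaptor, had the most opposed differences. Layout and capitals are as above. The Trem1 stretch is chr17:48232619-48232738 and the Trem2 stretch chr17:48346281-48346400, both on the plus strand of GRCm38.p6.
Trem1: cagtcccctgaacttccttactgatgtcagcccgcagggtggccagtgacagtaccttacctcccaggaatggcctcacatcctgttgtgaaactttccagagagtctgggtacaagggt
Trem2: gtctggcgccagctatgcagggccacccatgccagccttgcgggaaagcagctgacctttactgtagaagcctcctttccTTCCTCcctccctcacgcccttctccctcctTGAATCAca
The Trem2 stretch holds an ETS match at -40 to -35 and an AP-1 match at -9 to -3. The Trem1 stretch holds 0 matches, and its nearest ETS match lies farther upstream, at -162 to -157.

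In the CD300 family, whose members bind lipids and phospholipids of membranes, the gene with the largest difference was the inhibitory receptor gene Cd300lf. It had a level of 7.41 in granulocytes and 3.17 in monocytes, a difference of 4.25 (19.0-fold), and 4.48 by its other probe. The activating Cd300lb stood at -0.18 and -2.45, a difference of 2.28 (4.84-fold) that came to 1.40 without scaling and 1.76 after normexp correction. Cd300d, now named Cd300c2, differed by 1.51 (4.95 in granulocytes and 3.44 in monocytes) and Cd300e by 1.54. The inhibitory receptor gene Cd300a was close to equal, at 2.99 and 2.57; its probes gave 0.42 and 1.17, and the former was -0.46 without scaling. Cd300c, dim on both arrays, stood at -4.53 and -3.31 (-1.22), and at -0.02 after normexp correction. Cd300lg, which lies apart from the others on chromosome 11 and is known from endothelium, was the family's gene beyond 4-fold on the monocyte side, at -1.74 in granulocytes and 1.63 in monocytes, a difference of -3.38 (10.4-fold).

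The sialic acid binding receptors recognise sialylated surfaces, and several of them, such as Siglece, Siglecf and Siglecg, restrain the cell. Cd33 had the largest difference of the whole set: 3.84 in granulocytes and -1.13 in monocytes, or 4.97 (31.3-fold), above 99.3% of all genes with a value. Siglece, an inhibitory receptor of mouse neutrophils and macrophages, stood at -1.16 and -4.43, a difference of 3.27 (9.63-fold) that came to 1.94 after normexp correction of the background. Siglecf, a marker of eosinophils, stood at -0.32 and -1.94, a difference of 1.61, and Siglecg, known from B cells, at 1.14 and -0.14, a difference of 1.28. All 6 eosinophil markers above background were above 0, with a median of 1.61 and a summed signal of 39.9 in granulocytes and 15.1 in monocytes. The eosinophil receptor gene Il5ra was not well above background on either array, and the part of eosinophils in the Siglecf value was not tested.

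Siglech, a receptor of plasmacytoid dendritic cells, was not well above background in granulocytes and had a level of -1.20 in monocytes, at least 15.6-fold higher there. After normexp correction its bound came to -1.63, short of 4-fold. Of 8 plasmacytoid markers, 4 passed 4-fold on the monocyte side and the median difference was -2.03, with a summed signal of 14.2 in granulocytes and 35.4 in monocytes, and their part in the Siglech value was not tested. The 2 probes of Siglec1, the macrophage receptor sialoadhesin, lay far apart. One was close to background on both arrays, at -4.52 and -4.50 (-0.03), and the other, dim in granulocytes, gave a lower bound of -2.69. The former turned to 0.52 after normexp correction, so Siglec1 has no settled direction. Of 11 macrophage markers, 5 were above 0 and 6 below, with a median of -0.53. Their summed signal was 71.6 in granulocytes, carried mainly by Slc40a1 (5.96 in granulocytes and 1.31 in monocytes). It was 31.0 in monocytes, carried mainly by Adgre1 (2.83 in granulocytes and 4.66 in monocytes). The part of macrophages in the Siglec1 values was not tested.

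The paired PILR genes were all on the granulocyte side, the inhibitory one with its activating counterparts. Pilra, the inhibitory member, had a level of 6.33 in granulocytes and 2.04 in monocytes, a difference of 4.30 (19.6-fold), with 4.28 by its other probe. Pilrb1 stood at 6.60 and 3.37, a difference of 3.22 (9.33-fold), by a probe that lists both Pilrb1 and Pilrb2. Pilrb2 stood at 4.59 and 0.60, a difference of 3.99 (15.9-fold), and 2.83 by its other probe. The 3 genes lie within 48.0 kb by their probes on chromosome 5, and every probe of the 3 was beyond 4-fold.

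The promoters of the PILR genes were alike in sequence, and whether this bears on their levels was not tested. Over the 300 bases from 250 before to 50 after the start, Pilrb1 and Pilrb2 were identical at 97.3% of positions in a global alignment, and Pilra matched them at 80.7% and 81.3%. The stretches, in the layout above and all on the minus strand of chromosome 5, are chr5:137836279-137836398 for Pilra, chr5:137858050-137858169 for Pilrb1 and chr5:137871759-137871878 for Pilrb2.
Pilra: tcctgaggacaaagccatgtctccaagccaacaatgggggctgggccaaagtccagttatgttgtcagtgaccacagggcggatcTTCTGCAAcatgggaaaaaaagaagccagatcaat
Pilrb1: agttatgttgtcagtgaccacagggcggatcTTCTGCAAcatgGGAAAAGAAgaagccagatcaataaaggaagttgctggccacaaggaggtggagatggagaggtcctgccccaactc
Pilrb2: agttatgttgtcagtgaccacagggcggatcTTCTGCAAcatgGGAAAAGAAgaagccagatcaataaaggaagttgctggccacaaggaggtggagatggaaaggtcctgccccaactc
The same C/EBP match occurs at -35 to -28 in Pilra and at -89 to -82 in both activating genes. Shortly after it, Pilrb1 and Pilrb2 hold the ETS-IRF composite letters at -77 to -69. The Pilra stretch does not, and its match to these letters lies farther upstream, at -209 to -201.

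The PIR genes form the other set with closely similar promoters. Lilrb3, now named Pirb, encodes the inhibitory receptor PIR-B, and the Pira genes encode activating partners that signal through the Fc receptor gamma chain. Both kinds bind MHC class I molecules. Lilrb3 was bright on both arrays, at 8.91 in granulocytes and 7.23 in monocytes, a difference of 1.69 (3.22-fold). Its 2 probes overlap by 50 bases and are one measurement in effect. Pira3, now Lilra6, stood at 7.01 and 5.61 (1.40), Pira1 at 1.89 and 0.68 (1.21) and Pira6 at 2.44 and 1.36 (1.07). The promoters of Pira1 (through the current gene Pira2), Pira3 and Lilrb3 were identical at 86.3% to 95.7% of positions. The level differences of these genes lay between 1.21 and 1.69, and a link to the promoters was not tested. Among the other pairs of the 35 genes with a promoter entry, the highest identity was 52.3%, and the median over all 595 pairs was 43.7%. Since Pira genes are near copies, a probe may read several of them, and each value is better taken as one of the group.

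Lilrb4, an inhibitory receptor now named Lilrb4a, stood at 4.19 and 2.30, a difference of 1.90 (3.73-fold), by a probe that also lists Lilr4b. Lair1, an inhibitory receptor for collagens, lies among the PIR genes but was higher in monocytes, at -0.02 in granulocytes and 1.78 in monocytes. Its difference was -1.80 (3.48-fold), and its other probes gave -1.98 and -2.26, one of them beyond 4-fold. The SIRP genes were bright and differed by little more than 2-fold. Sirpa, the inhibitory receptor for the don't-eat-me signal Cd47, stood at 6.65 and 5.48, a difference of 1.17, with its other probes at 1.05 and 1.06. The activating Sirpb1 differed by 1.05, and by 0.77 with its other probe. Without scaling, the differences of Sirpa and Sirpb1 came to 0.30 and 0.18.

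**Figure D3:**
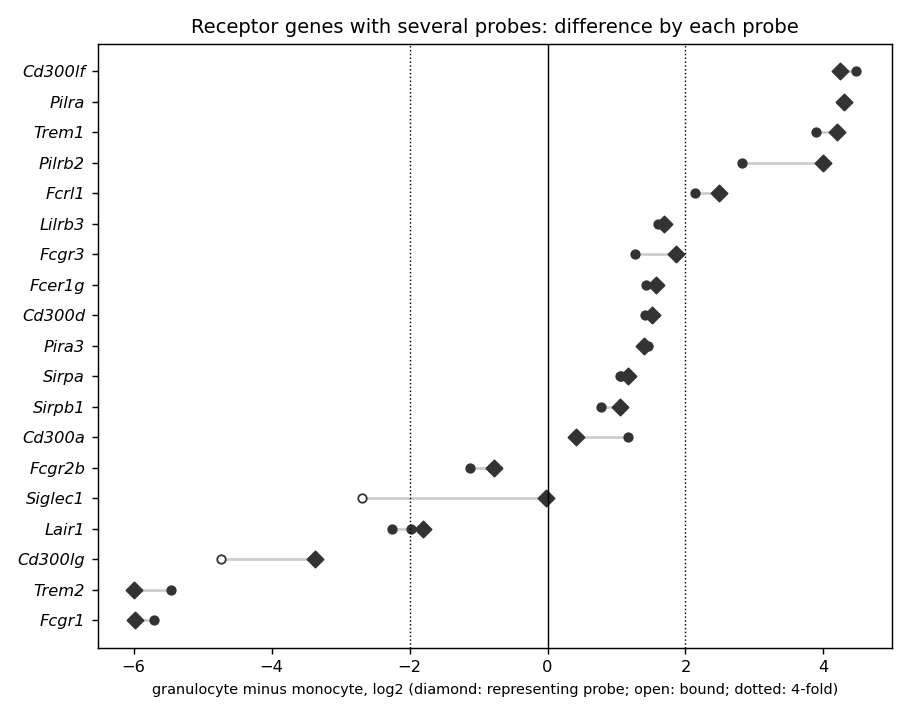
Granulocyte minus monocyte difference on the log2 scale by each probe of the 19 receptor genes with at least 2 probes that gave a value. Diamonds are the probes that represent the gene, open circles lower bounds and dotted lines 4-fold; probes of a gene lie on one side of 0 in every case shown, with the widest gaps for Siglec1, Cd300lg and Pilrb2.

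Neighbours on a chromosome, like the receptor genes as a whole, mostly lay on the granulocyte side but differed widely in size. By the positions of their probes in the files' build mm8, 28 of the genes fell into 6 groups of at least 3, with no gap over 500 kb. Of these 28, 24 were above 0, and the 4 below it, Fcgr2b, Cd300c, Trem2 and Lair1, lay in a group each. Without scaling Cd300a, Fcrla and Treml1 were below 0 too. With the scaling, 30 receptor genes were above 0 and 9 below, and of all genes 9305 were above it and 5928 below. In the TREM group the differences ran from -5.997 (Trem2) to 4.20 (Trem1) within 122 kb. In the CD300 group they ran from -1.22 to 4.25 within 215 kb, and in the Fc gamma receptor group from -0.77 to 4.64 within 312 kb, where Fcgr4 lies between Fcgr2b and Fcgr3. The PILR group kept between 3.22 and 4.30. The Siglec group of chromosome 7 lay wholly above 0, from Siglecg at 1.28 to Cd33. The PIR group held 4 genes between 1.07 and 1.69, with Lair1 between them. Probes of different receptor genes shared at most 13 bases in a row over 1990 pairs. That compares probes with each other only, and whether a probe matches the transcript of another gene was not tested. Which exons the probes lie in was not analysed here.

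**Figure D4:**
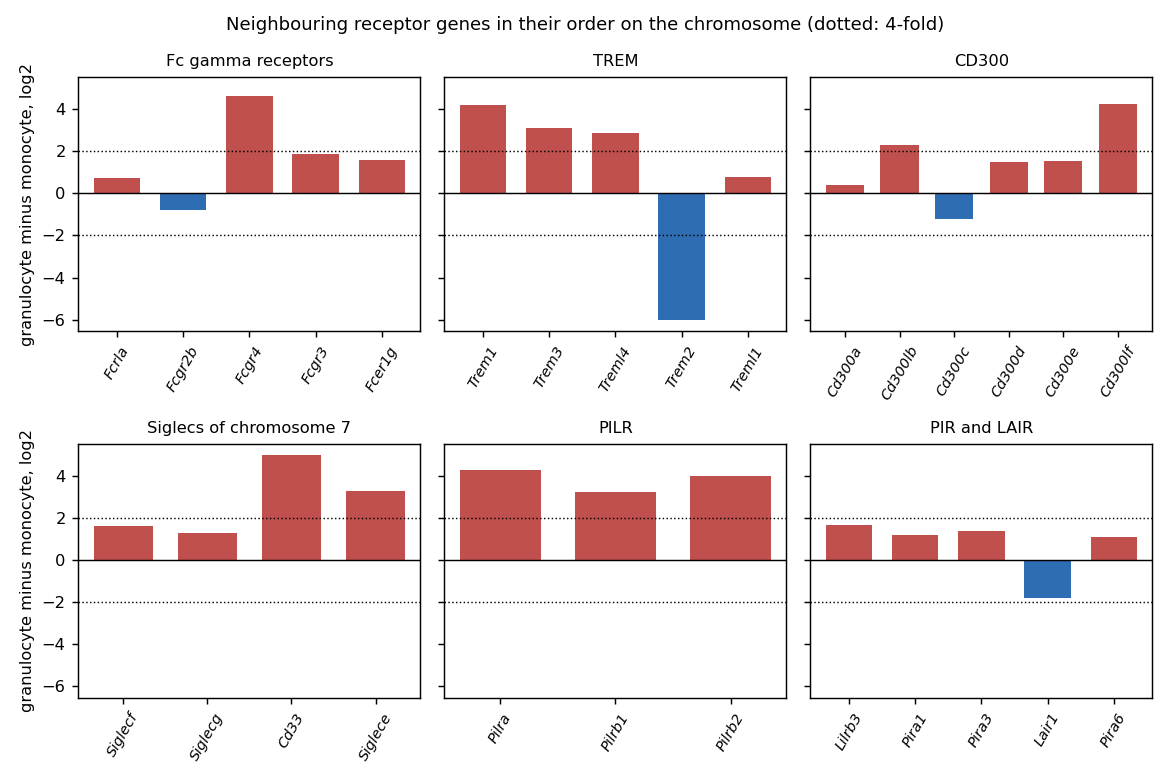
Granulocyte minus monocyte difference on the log2 scale for receptor genes that lie next to each other, as bars in their order on the chromosome (red above 0, blue below; dotted lines 4-fold). Trem2 stands at -5.997 between Treml4 and Treml1, Fcgr4 at 4.64 between Fcgr2b and Fcgr3, and the 3 PILR genes stand alike.

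Grouped by the sign of their signal in textbook knowledge, both kinds had members on either side. The shares of all genes beyond 4-fold were 8.54% on the granulocyte side and 10.4% on the monocyte side. Of 12 inhibitory genes, 3 (25%) passed 4-fold on the granulocyte side (Pilra, Cd300lf and Siglece) and 0 on the monocyte side. Their differences ran from -1.80 (Lair1) to 4.30, with a median of 1.45. Of 18 activating genes, 6 (33.3%) passed it on the granulocyte side (Fcgr4, Trem1, Trem3, Pilrb1, Pilrb2 and Cd300lb). On the monocyte side 3 (16.7%) did (Fcgr1, Trem2 and Siglech). With so few genes per class, the monocyte-side counts are a description only. The differences of the activating genes ran from -5.997 to 4.64 with a median of 1.47. The remaining 10, among them Cd33 and Fcgrt, were placed in neither class.

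Motif letters were counted in the promoter windows of 35 of the 41 genes, which had 39 windows, and in all 32851 windows of the RefSeq table. The ETS letters GAGGAA occurred in 59.0% of the receptor windows and in 28.3% of all windows, and the C/EBP letters TTGCNNAA in 28.2% and 10.8%. For the interferon-response letters GAAANNGAA the shares were 23.1% and 8.6%. The ETS-IRF letters GGAANNGAA (10.3% and 8.2%) and the AP-1 letters TGANTCA (12.8% and 7.8%) were nearer to all windows. The ETS letters were present for 8 of the 11 genes beyond 4-fold on the granulocyte side, 3 of the 4 on the monocyte side and 11 of the other 20, the C/EBP letters for 3, 3 and 4 of them and the interferon-response letters for 5, 0 and 4. With 4 genes on the monocyte side these splits are a description only. The closely similar PILR and PIR windows count more than once in these shares.

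The signalling partners of the receptors were followed in a list of 54 genes that are no members. Of these, 5 (9.3%) passed 4-fold on the granulocyte side and 7 (13%) on the monocyte side, shares near the 8.54% and 10.4% of all genes, and their median was 0.67 against 0.45. Among 9 adaptor genes, Hcst, an adaptor of activating receptors, stood at 4.92 in granulocytes and 1.71 in monocytes (3.21), and Lat2 at -1.54 and 2.35 (-3.89). Lat differed by -1.71, and Cd247, the zeta chain of T and NK cell receptors, was at least 6.41-fold higher in monocytes, though its bound came to -0.60 after normexp correction. Of 7 T-cell markers 4 were below 0, with a median of -1.32 and a summed signal of 5.37 in granulocytes and 4.27 in monocytes. Of 6 NK-cell markers above background 5 were below 0, with a median of -0.82 and a summed signal of 0.395 and 1.99. The part of T and NK cells in the Lat, Cd247 and Zap70 values was not tested. Tyrobp, named here outside the rule for its role as partner of the TREM receptors, was bright in both, at 8.51 and 6.91 (1.59).

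Of 15 kinases and effectors, 14 were above 0, but only Fgr reached 4-fold, at 5.27 in granulocytes and 2.98 in monocytes (2.29), which came to 1.42 without scaling and 1.80 after quantile normalisation. Next in size were the adaptor genes Bcl10 (1.78) and Pik3ap1 (1.76) on the granulocyte side and the T-cell kinase gene Zap70 (-1.71) on the monocyte side. Syk itself, also named for its role, differed by 1.66. Without scaling, 7 of the 14 were below 0 (Btk, Lyn, Malt1, Pik3cd, Plcg2, Prkcd and Vav1), so the common direction depends on the scaling. Probes had opposite signs for Plcg1 (1.46 and -1.83) and for Malt1 (0.30 and -0.20).

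**Figure D5:**
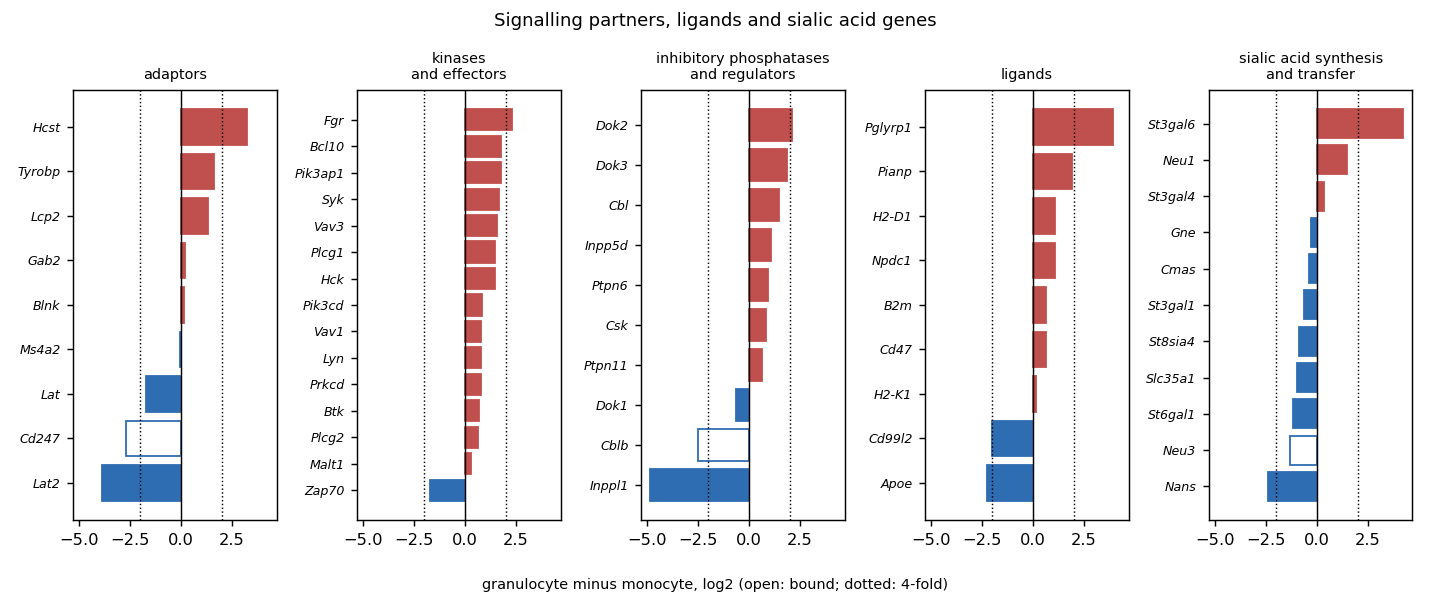
Granulocyte minus monocyte difference on the log2 scale for adaptors, kinases and effectors, inhibitory phosphatases and regulators, ligands, and genes of sialic acid synthesis and transfer, as bars (red above 0, blue below, open for lower bounds; dotted lines 4-fold). Lat2 and Inppl1 are the lowest, St3gal6 and Pglyrp1 the highest.

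The phosphatases that serve inhibitory receptors were within about 2-fold, with Ptpn6 at 0.94, Inpp5d at 1.08 and Ptpn11 at 0.63, the last of which turned below 0 without scaling. The related lipid phosphatase gene Inppl1 stood apart, at -2.92 in granulocytes and 1.91 in monocytes (-4.83, 28.3-fold). Dok2 differed by 2.11, with 1.24 without scaling and 1.62 after quantile normalisation, and Dok3 by 1.89. Cblb was at least 5.54-fold higher in monocytes, though its bound came to -0.44 after normexp correction. Among 9 listed ligands, Pglyrp1, which binds the Trem1 product, stood at 7.72 and 3.77 (3.95), and Apoe, a ligand of the Trem2 product, at 2.95 and 5.21 (-2.26). Cd99l2, from the same list of ligands, differed by -2.003, with -1.16 after normexp correction, and Pianp, whose product binds PILR alpha, by 1.92. Of 11 genes that make, transfer or remove sialic acid, 8 were below 0, led by the synthase gene Nans (-2.37), while the sialyltransferase gene St3gal6 stood at 2.29 and -1.95 (4.24). Probes disagreed in sign for St6gal1 (-1.17 and 0.94) and Gne (-0.35 to 0.04), both counted below 0. They also did for St3gal4 (-0.24 and 0.36), counted above it. The sialidase gene Neu1 differed by 1.48. Neu3 was at least 2.48-fold higher in monocytes, though no bound remained after normexp correction.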

How the data were processed

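Total RNA (0.5 µg) of each cell type was amplified and labelled with Cy3, per the labels' protocols. Per the file headers, Agilent Feature Extraction 10.5.1.1 gave each spot a processed intensity, background-subtracted and not normalised between arrays. The authors' deposited log2 table equalled log2 of that intensity plus a constant of -0.24 for granulocytes and -0.92 for monocytes (100.0% of single-spot probes within 0.01), and the sources used here do not state how the constants were set. Control spots and outlier spots (143 and 103) were left out. Levels were set against the 75th percentile of gene spots, 339.4 and 620.9. Of several probes, that with signal above background on more arrays stood for the gene, and among equals the brightest. Where 1 array was dim, the bright level minus the higher of that array's lowest level above background (-5.16 and -6.04) and the dim probe's own gave a bound. Receptor genes keep the files' names, and all other probes were named through RefSeq accessions (24496), current symbols (6234) or single older symbols (2386), with 8058 unnamed. Promoter windows were those of RefSeq GRCm38.p6, aligned globally.

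With 1 array per group no test was possible, and precision is limited by that number. Receptor genes at 2-fold or more are given in full, as are up to 4 partners per list with the largest differences. The members, lists and rules were chosen with earlier results of these data known. The alternatives were other scalings, normexp background correction with limma 3.58.1 (offset 50), the authors' table, filters, other rules for several probes and other fold sizes. The calculation was checked on simulated arrays. Protein motifs were not analysed here.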

Additional observations from a re-analysis of the deposited data

How the results depend on the processing

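No paired analysis was possible because each cell type had 1 array, and for the same reason no array could be left out. The alternatives below bear on the processing and not on variation between mice. The number of receptor genes at least 4-fold higher in granulocytes was 9 to 12 over all scalings, filters and probe rules and that in monocytes 4 to 7; at 2-fold the former was 26, by construction. All 17 genes beyond 4-fold kept their direction in every alternative run, and 12 stayed beyond 4-fold. Below it came Cd300lb, Fcrl1 and Treml4 without scaling (1.40, 1.62 and 1.99) and Cd300lb, Fcrl1, Siglece and Siglech after normexp correction, which shrinks dim genes by its offset. A scaling by 1 constant smaller than 4-fold cannot turn such a gene, so for those settings the direction could not change. Of the other 22 genes, 4 changed sign: Cd300a, Fcrla and Treml1 without scaling and Siglec1 after normexp correction. The median over receptor genes was 0.47 without scaling, 0.99 after quantile normalisation and 1.17 after normexp correction, where the medians of all genes were -0.42, 0.21 and 0.53. Over signalling partners it was -0.21 without scaling and 0.13 after quantile normalisation. The partners at least 4-fold higher in granulocytes became 3 under each of these settings, and those in monocytes 11 without scaling and 4 after normexp correction. Without the probes that list several genes (chosen after seeing the data) there were 11 and 5 receptor genes. The cause of these shifts beyond the settings' own construction was not tested. Signal near background on 1 array left Fcer2a and Siglech with bounds and Fcrl5 with none.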

Other observations

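Some genes of these families carry other names in the files and so lie outside the set. The largest difference among them was that of Cd300ld, a CD300 gene named 4732429D16Rik in the files, with a level of 3.0 in granulocytes and -1.42 in monocytes (4.42, 21.4-fold), close in size to its relative Cd300lf. Cd300ld3 (0.84) and Fcrls (0.96) differed by less than 2-fold, and Lilra5 was not well above background on either array. These genes were chosen after their values were seen.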
